A study of Mus musculus with 18 samples.

Results

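The interferon regulatory factors are a family of transcription factors, and 8 of their genes, Irf1, Irf2, Irf3, Irf4, Irf5, Irf7, Irf8 and Irf9, were followed here by symbol among the 57010 gene identifiers of a mouse RNA-seq study. The 18 libraries came from C57B6/J mice, from uterus and from ovary at 20 to 25 weeks of age, with 3 libraries for each of 3 genotypes in each tissue. The genotypes were wild type (WT), ARE+/- and ARE-/-. The labels do not spell out ARE. As background knowledge of this mouse line, it is the AU-rich element of the Ifng transcript, whose germline removal keeps interferon-γ made chronically. The series title places the tissues in interferon-γ-induced hypophysitis with failed implantation, so a question the design addresses is how uterus and ovary differ between the genotypes. Neither a treatment nor an estrous stage was given, the uterus and ovary of the same mouse were not marked, and a pair of libraries, uterus WT 1 and ovary ARE-/- 6, carry the word backup in their titles. The design text speaks of 3 mice per genotype, but no label names the mouse behind a library, so the p-values measure only the spread between these libraries.

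All members of the family bind DNA through a tryptophan-rich domain that reads the interferon-stimulated response element (ISRE), a repeat of GAAA. They divide by how they are switched on. Interferon-γ signals to promoters through GAS sites, and IRF1 is its classical secondary activator, with IRF2 binding the same elements as an attenuator. IRF3, IRF5 and IRF7 wait in the cytoplasm and are activated by nucleic acid and Toll-like receptor sensing, IRF9 is the DNA-binding subunit of the ISGF3 complex, and IRF4 and IRF8 act in lymphoid and myeloid cells with partners such as PU.1. In the uterus, interferon-γ from natural killer cells is known for its part in remodelling the implantation site.

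Because the study turns on interferon-γ, the RefSeq promoter windows of the 8 genes (GRCm38.p6, 250 bases before each annotated start, 11 windows) were searched on both strands for GAS, spelled TTCNNNGAA, and for an ISRE core, spelled as GAAA repeated after any 2 bases. No match of one motif overlapped a match of the other. GAS letters were found in windows of 3 genes, Irf1, Irf8 and Irf2, and ISRE core letters in the window of Irf2. Of 32851 windows of this length, 7.02% held the GAS letters and 2.98% the ISRE core. The 3 windows are printed 5′ to 3′ on the plus strand, which is the strand of all 3 genes, with matches in capitals, as the windows of the family that held a match. They lie at chr11:53769764-53770013 for Irf1, chr8:120736108-120736357 for Irf8 and chr8:46739495-46739744 for Irf2.
Irf1: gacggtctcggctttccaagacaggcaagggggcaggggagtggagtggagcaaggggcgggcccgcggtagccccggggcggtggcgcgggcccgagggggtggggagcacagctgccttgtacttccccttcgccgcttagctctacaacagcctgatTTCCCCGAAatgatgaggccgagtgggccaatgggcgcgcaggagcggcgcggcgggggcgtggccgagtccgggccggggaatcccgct
Irf8: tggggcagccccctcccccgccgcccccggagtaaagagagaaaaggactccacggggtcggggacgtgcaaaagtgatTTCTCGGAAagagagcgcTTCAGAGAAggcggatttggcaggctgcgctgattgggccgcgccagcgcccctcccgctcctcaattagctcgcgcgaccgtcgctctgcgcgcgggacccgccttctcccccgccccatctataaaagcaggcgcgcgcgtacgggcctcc
Irf2: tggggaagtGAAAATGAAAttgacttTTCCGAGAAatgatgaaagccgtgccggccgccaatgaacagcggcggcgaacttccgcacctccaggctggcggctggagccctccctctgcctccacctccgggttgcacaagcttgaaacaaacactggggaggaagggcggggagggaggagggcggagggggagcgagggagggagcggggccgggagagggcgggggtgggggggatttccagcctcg
In Irf1 the match TTCCCCGAA lay 90 to 82 bases before the start. In Irf8 the matches TTCTCGGAA and TTCAGAGAA lay 171 to 163 and 153 to 145 bases before it. In Irf2 the capitals mark first the ISRE core GAAAATGAAA, at 241 to 232 bases, and then the GAS match TTCCGAGAA, at 224 to 216 bases. A match describes letters and shows no binding, and the other 8 windows held neither motif.

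The libraries held 33185496 to 49720354 counts each. Ifng, the gene altered in the line, lay between 0 and 0.128 CPM (counts scaled to library size) in the 6 WT libraries, between 0.213 and 1.93 CPM in the ARE+/- libraries and between 0.966 and 3.15 CPM in the ARE-/- libraries, so every ARE library lay above every WT library while the ranges of the ARE genotypes overlapped. Ovary markers summed to at least 1874 CPM in every ovary library and to at most 32.8 CPM in 8 of 9 uterus libraries. Uterus markers separated the tissues less: they summed to 2142 to 6738 CPM in uterus and to 861 to 2086 CPM in ovary, with the lowest uterus sum in ARE-/- 3 and the highest ovary sum in ARE-/- 2. Uterus ARE-/- 1 stood apart, with an ovary marker sum of 249.7 CPM and an adipocyte marker sum of 15579 CPM against 37.7 to 1558 CPM in the other uterus libraries. Ovary ARE-/- 6 differed from ARE-/- 2 and 3. T cell markers summed to 49.3 CPM in it, against 62.6 and 111.7 CPM in those and 9.90 to 12.1 CPM in WT ovary. Its ovary marker sum of 7397 CPM was near the 7429 to 10631 CPM of WT ovary, while ARE-/- 2 and 3 had 3570 and 1874 CPM. Adipocyte markers summed to 42.9 CPM in ARE-/- 6, 1282 and 1954 CPM in ARE-/- 2 and 3 and 110 to 178 CPM in WT ovary. On the ovary and adipocyte sums, ARE-/- 2 and 3 thus lay farther from WT. Calls among the 8 genes that changed without uterus ARE-/- 1 or without ovary ARE-/- 6 are given beside the result.

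In ARE-/- uterus, 4 of the 8 family genes rose, Irf1, Irf5, Irf7 and Irf8, and in ARE-/- ovary 6 of 8 rose, the same 4 with Irf2 and Irf9. None fell in either tissue. Across all genes tested, 3.36% were called higher in ARE-/- uterus and 6.31% in ARE-/- ovary. In heterozygotes 1 of 8 rose in uterus, Irf1, against 1.08% of all genes, and 3 of 8 rose in ovary, Irf1, Irf7 and Irf8, against 1.35%. The median log2 fold change of the 8 genes for ARE-/- against WT was 0.99 in uterus and 1.32 in ovary, where that of all genes was 0.04 and 0.02. For ARE+/- the medians were 0.75 in uterus and 0.95 in ovary, against 0.01 and 0.02 for all genes. Every ARE-/- library lay above every WT library for 7 of the 8 genes in uterus, all but Irf3, and for 6 in ovary, all but Irf3 and Irf4, which held for 12.5% and 16.1% of all genes. For ARE+/- this held for 6 of 8 in each tissue, against 15.7% of all genes in uterus and 14.7% in ovary. The comparisons with ARE+/- and with ARE-/- share the WT libraries of their tissue. The ARE-/- uterus count fell to 1 without WT 1 or WT 3 and to 2 with only the 2 groups fitted, and the ARE+/- uterus count was 0 without WT 1 or WT 3 and 4 without ARE-/- 1. The ARE+/- ovary count was 1 without WT 1, WT 3, ARE+/- 1 or ARE+/- 4. Without uterus ARE-/- 1 the ARE-/- uterus count was again 4, with Irf9 in place of Irf7, and without ovary ARE-/- 6 the ARE-/- ovary count was 7, with Irf4 added. With DESeq2, Irf9 was added in ARE-/- uterus, Irf4 in ARE-/- ovary, Irf5, Irf7, Irf8 and Irf9 in ARE+/- uterus, and Irf5 and Irf9 in ARE+/- ovary. With only the 2 groups fitted, Irf5, Irf8 and Irf9 were added in ARE+/- uterus and Irf5 in ARE+/- ovary. In bulk tissue, more cells of a type and more RNA per cell cannot be told apart. A gene counted as called when edgeR's quasi-likelihood test gave an adjusted p under 0.05. The spread between libraries of a group, as edgeR's common coefficient of variation, was 0.411 in uterus and 0.281 in ovary. Here and for the gene lists below, called counts therefore do not compare the size of the response between the tissues.

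**Figure D1:**
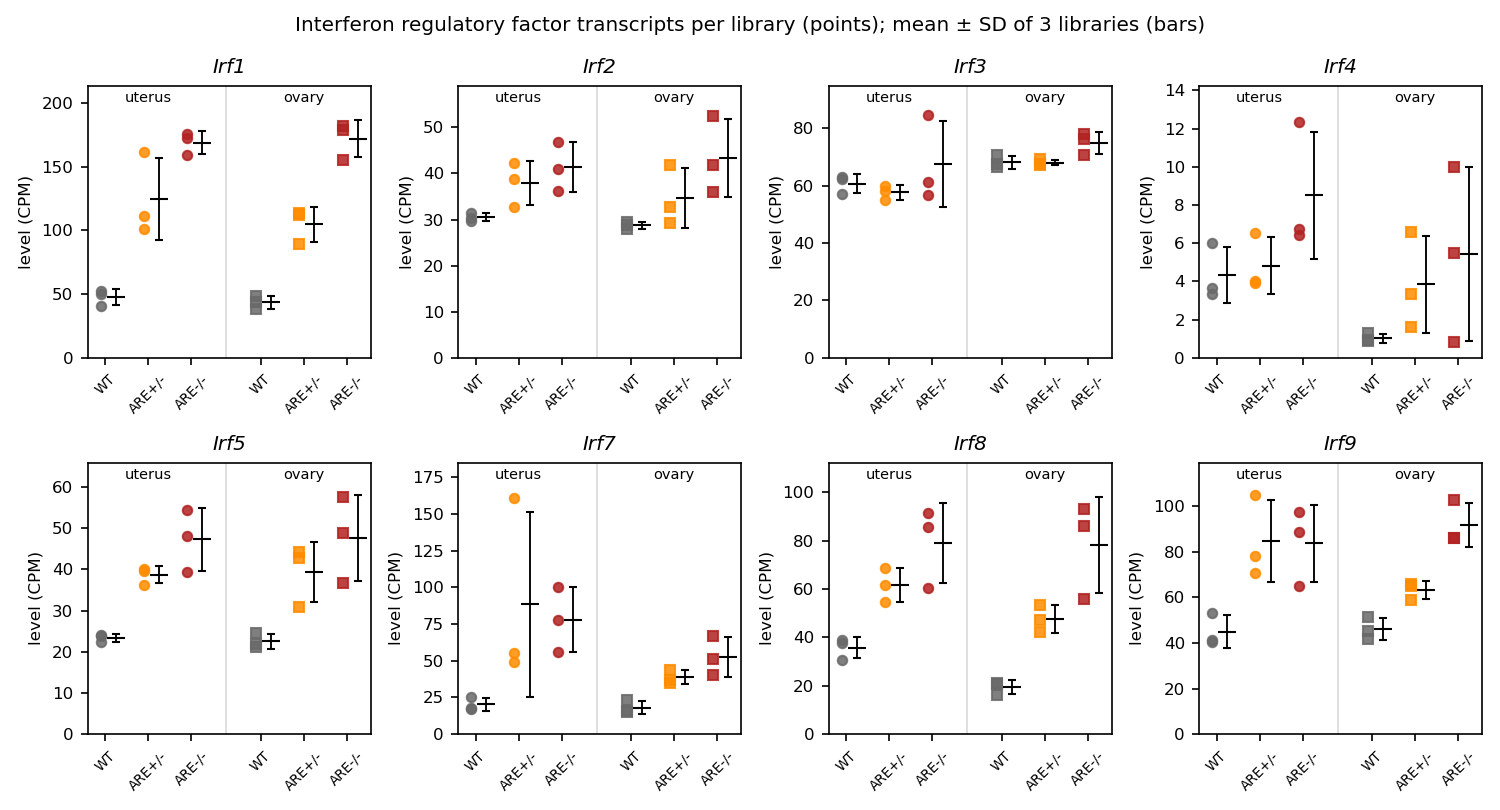
Level of each of the 8 genes (y axis, CPM, starting at 0) in each library, for uterus (circles) and ovary (squares) by genotype, with the mean ± SD of 3 libraries beside the points. Irf1 separates WT from both ARE genotypes in both tissues, Irf3 overlaps between WT and both ARE genotypes, and the uterus ARE+/- library at 161 CPM stands apart for Irf7.

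Irf1, the activator induced by interferon-γ, lies at chr11:53660841-53669200 on the plus strand in the GENCODE M32 annotation of the count files, which gives all gene coordinates below and belongs to a later build than the promoter windows. In uterus its level was 52.4, 50.3 and 40.6 CPM in the WT libraries, 111, 101 and 161 CPM in ARE+/- and 159, 176 and 172 CPM in ARE-/-. In ovary it was 38.1, 48.7 and 43.6 CPM in WT, 113, 88.9 and 112 CPM in ARE+/- and 182, 178 and 155 CPM in ARE-/-. Every ARE library of either genotype lay above every WT library of its tissue, and in ovary every ARE-/- library also lay above every ARE+/- library. In ARE-/-, Irf1 rose 3.54-fold in uterus (log2 1.82 ± 0.21 SE, adjusted p = 0.00176) and 3.96-fold in ovary (1.98 ± 0.13, adjusted p = 2.1e-05). For ARE+/- the rise was 2.61-fold in uterus (1.38 ± 0.20, adjusted p = 0.0146) and 2.41-fold in ovary (1.27 ± 0.13, adjusted p = 0.00109). The ARE-/- calls were kept in every alternative run for them, with log2 values of 1.71 to 1.89 in uterus and 1.88 to 2.06 in ovary. The uterus ARE+/- call ended without WT 1 (1.45, adjusted p = 0.0935) or WT 3 (1.28, adjusted p = 0.119). In the ovary, ARE-/- lay 0.71 ± 0.12 above ARE+/-, which was not called (adjusted p = 0.138) but was with no filter on low counts (0.72, adjusted p = 0.0132).

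Irf1 shares 616 of its 3336 exonic bases with the antisense gene Gm17334, and the counting did not use strand, so reads in that stretch were counted for both genes whichever they came from. Gm17334 itself differed by 1.76 in ARE-/- uterus and 1.77 in ARE-/- ovary on the log2 scale. All counts of Gm17334 were then taken off, those from outside the shared stretch too, a calculation chosen after seeing the data. The Irf1 differences were then 1.84 and 2.06 for ARE-/- and 1.39 and 1.34 for ARE+/-, in uterus and ovary. All 4 kept their calls. Because Gm17334 differed by a like amount, taking its counts off could move the Irf1 difference only a little, whichever gene the reads came from.

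Irf2, the attenuator that binds the same DNA elements, lies at chr8:47192767-47300493 on the plus strand. Its uterus levels were 30.4, 31.4 and 29.7 CPM in WT, 38.8, 32.7 and 42.2 CPM in ARE+/- and 36.2, 41.1 and 46.9 CPM in ARE-/-. Its ovary levels were 28.9, 28.0 and 29.4 CPM in WT, 32.7, 29.3 and 41.9 CPM in ARE+/- and 41.8, 52.4 and 35.9 CPM in ARE-/-. The ARE-/- libraries lay above all WT libraries in both tissues, and the ARE+/- libraries did so in uterus. In ovary Irf2 rose 1.51-fold in ARE-/- (log2 0.59 ± 0.16, adjusted p = 0.0430), and that call ended in 6 of 14 alternatives, all leaving out 1 library: any WT library (0.56 to 0.59, adjusted p = 0.112 to 0.142), ARE+/- 1 (0.59, 0.0706), ARE-/- 2 (0.61, 0.0978) or ARE-/- 3 (0.42, 0.125). The uterus difference, 0.44 ± 0.16, was not called (adjusted p = 0.173), nor were those of ARE+/- (0.31 and 0.27 in uterus and ovary).

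Because Irf1 and Irf2 compete for the same sites, their levels were also set side by side per kilobase of merged exon. The Irf1 to Irf2 ratio of CPM per kilobase was 1.17 ± 0.14 in WT uterus (SD, n = 3), 2.44 ± 0.37 in ARE+/- and 3.08 ± 0.29 in ARE-/-. In ovary it was 1.13 ± 0.16, 2.29 ± 0.30 and 3.02 ± 0.41. The lowest ratio in any ARE library, 2.00, lay above the highest in any WT library, 1.30. An exact two-sided permutation test gave p = 0.1 for each of the 4 contrasts with WT, the smallest value that 3 libraries against 3 allow, so this test cannot pass 0.05 for a single ratio.

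IRF8, a factor of macrophages and dendritic cells, and IRF4, a factor of plasma cells, activated T cells and some dendritic cells, were the 2 members whose WT level differed between tissues. Irf8 lies at chr8:121463097-121483433 on the plus strand. It measured 39.0, 37.7 and 30.7 CPM in WT uterus, 54.6, 68.5 and 61.6 CPM in ARE+/- and 60.3, 85.5 and 91.5 CPM in ARE-/-. In ovary it measured 16.2, 20.8 and 21.2 CPM in WT, 47.3, 42.1 and 53.4 CPM in ARE+/- and 92.9, 85.9 and 55.8 CPM in ARE-/-. The 3 ovary groups did not overlap, and in uterus both ARE groups lay above WT but overlapped each other. In ARE-/-, Irf8 rose 4.03-fold in ovary (log2 2.01 ± 0.20, adjusted p = 0.000489), and this call was kept in all alternatives run for it. The rise was 2.21-fold in ARE-/- uterus (1.15 ± 0.20, adjusted p = 0.0134), lost without WT 1 (1.21, adjusted p = 0.0688), without WT 3 (1.04, adjusted p = 0.0926) or with only the 2 groups fitted (1.15, adjusted p = 0.0600). Without the uterus ARE-/- 1 library it was 1.30 (adjusted p = 0.00223). In ARE+/- ovary the rise was 2.45-fold (1.29 ± 0.19, adjusted p = 0.0144), lost without any WT library or without ARE+/- 1 or 4 (1.16 to 1.35, adjusted p = 0.0566 to 0.0909). In ARE+/- uterus the difference was 0.78 ± 0.19 and not called (adjusted p = 0.0964), but it was called without ARE-/- 1 (0.78, adjusted p = 0.0228).

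Irf4, at chr13:30933209-30950959 on the plus strand, was the scarcest member, with 34 to 445 counts a library. In uterus it measured 3.65, 3.33 and 6.00 CPM in WT, 6.55, 3.89 and 4.03 CPM in ARE+/- and 12.4, 6.73 and 6.41 CPM in ARE-/-. In ovary it measured 0.920, 1.27 and 0.853 CPM in WT, 3.35, 1.60 and 6.57 CPM in ARE+/- and 5.47, 9.96 and 0.843 CPM in ARE-/-. Ovary ARE-/- 6 lay below all 3 WT ovaries, while the other 2 ARE-/- ovaries lay above them. The ovary ARE-/- difference was 2.41 ± 0.83 and not called (adjusted p = 0.105). Without ARE-/- 6 it was 2.90 ± 0.54 and called (adjusted p = 0.0115). B cell markers summed to 20.2, 64.9 and 8.73 CPM in ovary ARE-/- 2, 3 and 6, the same order as Irf4, against 3.97 to 5.52 CPM in WT ovary. T cell markers, at 62.6, 111.7 and 49.3 CPM, had that order too, and plasma cell markers, at 231.8, 274.4 and 255.8 CPM, did not. In ARE-/- uterus 1, 2 and 3, plasma cell markers had the order of Irf4, at 434.6, 351.4 and 262.6 CPM. B cell markers there, at 11.1, 8.47 and 17.9 CPM, and T cell markers, at 112.4, 115.5 and 135.8 CPM, did not. The part of these cells in the Irf4 values was not tested. The uterus ARE-/- difference was 0.97 ± 0.38 (adjusted p = 0.193), and 0.60 without ARE-/- 1.

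IRF7, the factor that amplifies type I interferon production and is itself an ISGF3 target, lies on the minus strand at chr7:140842619-140846394. In uterus it measured 18.1, 25.4 and 17.4 CPM in WT, 49.2, 55.2 and 161 CPM in ARE+/- and 78.1, 55.7 and 99.9 CPM in ARE-/-. In ovary it measured 15.9, 23.1 and 14.8 CPM in WT, 37.1, 34.9 and 44.0 CPM in ARE+/- and 50.9, 67.2 and 40.2 CPM in ARE-/-. All ARE libraries lay above all WT libraries of their tissue, and uterus ARE+/- 3 lay above every other library. In ARE-/-, Irf7 rose 2.95-fold in ovary (log2 1.56 ± 0.22, adjusted p = 0.00349), kept in all alternatives, and 3.84-fold in uterus (1.94 ± 0.44, adjusted p = 0.0441). The uterus call was lost in 7 of 14 alternatives: without any filter on low counts (1.92, adjusted p = 0.0741) and without any 1 WT library, ARE+/- 2, ARE-/- 1 or ARE-/- 3 (1.69 to 2.13, adjusted p = 0.0551 to 0.201). The ARE+/- difference in uterus, 2.12 ± 0.45, was not called (adjusted p = 0.0593), and without ARE+/- 3 it was 1.36 (adjusted p = 0.0938). In ARE+/- ovary Irf7 rose 2.16-fold (1.11 ± 0.22, adjusted p = 0.0435), a call lost in 7 of 14 alternatives, 6 of which left out 1 library (WT 1, WT 3, ARE+/- 1, 2 or 4, or ARE-/- 2; 0.97 to 1.16, adjusted p = 0.0644 to 0.203).

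**Figure D2:**
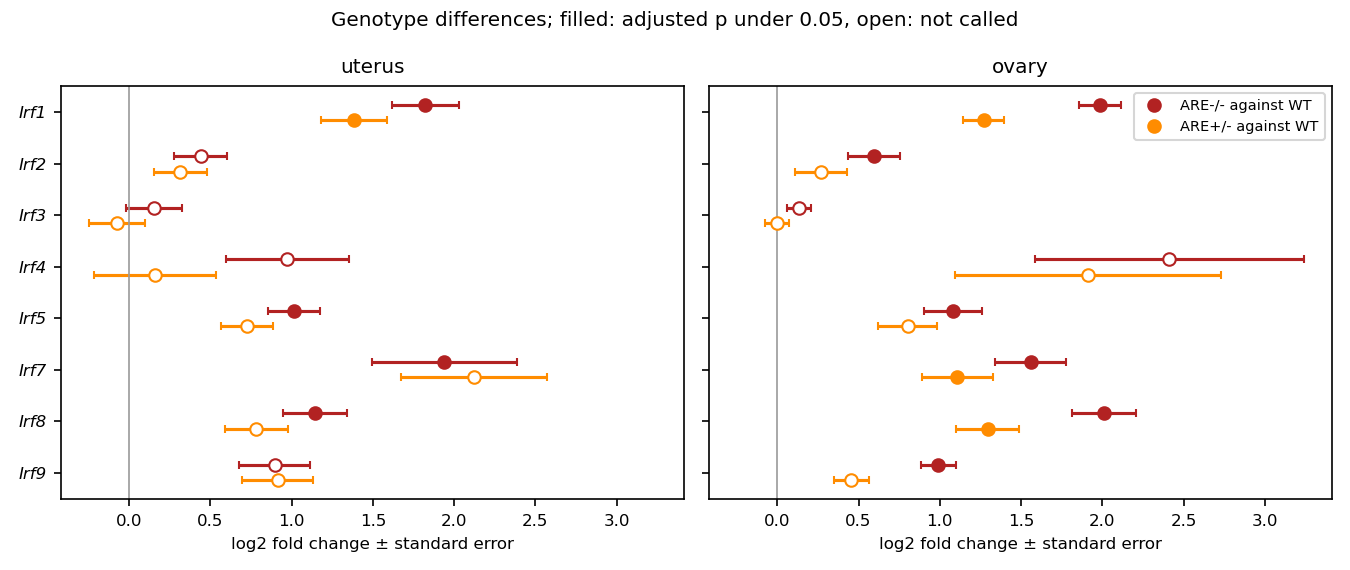
Log2 fold change ± standard error of each gene (x axis) for ARE-/- and ARE+/- against WT in uterus (left) and ovary (right), filled where the adjusted p was under 0.05. Values run from -0.07 for Irf3 in ARE+/- uterus to 2.41 for Irf4 in ARE-/- ovary, which is open (adjusted p = 0.105).

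Irf5, the Toll-like receptor effector of macrophages, lies at chr6:29526624-29541870 on the plus strand. In uterus it measured 23.9, 24.0 and 22.3 CPM in WT, 36.3, 40.1 and 39.7 CPM in ARE+/- and 48.1, 39.3 and 54.4 CPM in ARE-/-. In ovary it measured 21.1, 24.5 and 22.0 CPM in WT, 44.2, 30.9 and 42.8 CPM in ARE+/- and 57.5, 48.8 and 36.7 CPM in ARE-/-. Both ARE groups lay above WT in both tissues and overlapped each other. In ARE-/-, Irf5 rose 2.02-fold in uterus (log2 1.01 ± 0.16, adjusted p = 0.0101) and 2.11-fold in ovary (1.08 ± 0.18, adjusted p = 0.00660). The uterus call ended without WT 1 (1.02, adjusted p = 0.0672), without WT 3 (0.98, adjusted p = 0.0735) or with only the 2 groups fitted (1.01, adjusted p = 0.0553). The ARE+/- differences were 0.73 ± 0.16 in uterus (adjusted p = 0.0698) and 0.80 ± 0.18 in ovary (adjusted p = 0.0596), neither called. The uterus one was called without ARE-/- 1 (0.72, adjusted p = 0.0337), and the ovary one without ARE-/- 6 (0.78, adjusted p = 0.0246), without ARE+/- 2 (0.93, adjusted p = 0.0332) or with no filter on low counts (0.80, adjusted p = 0.0329). Irf5 shares 251 exonic bases with the antisense gene Tnpo3, whose 2304 to 4257 counts a library exceeded the 825 to 2290 of Irf5 and whose ARE-/- differences were -0.29 in uterus and 0.08 in ovary.

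Irf3, the constitutive member that starts interferon-β production, lies at chr7:44647072-44652272 on the plus strand and differed least. In uterus it measured 62.9, 62.2 and 57.0 CPM in WT, 59.98, 58.1 and 54.95 CPM in ARE+/- and 84.6, 56.8 and 61.4 CPM in ARE-/-. In ovary it measured 66.4, 70.7 and 67.6 CPM in WT, 67.4, 69.1 and 67.6 CPM in ARE+/- and 70.6, 76.1 and 77.9 CPM in ARE-/-. The groups overlapped in every comparison with WT, and the highest value came from uterus ARE-/- 1. The differences from WT were 0.16 ± 0.17 and 0.13 ± 0.07 for ARE-/- and -0.07 ± 0.17 and 0.00 ± 0.07 for ARE+/-, in uterus and ovary. None was called, with adjusted p-values of 0.279 to 0.988, and without uterus ARE-/- 1 the first was -0.04.

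IRF9, the DNA-binding subunit of ISGF3, is encoded at chr14:55841028-55847487 on the plus strand. In uterus Irf9 measured 41.4, 53.1 and 40.3 CPM in WT, 70.8, 78.2 and 105 CPM in ARE+/- and 64.8, 88.6 and 97.6 CPM in ARE-/-. In ovary it measured 45.4, 51.3 and 41.7 CPM in WT, 58.7, 65.8 and 65.0 CPM in ARE+/- and 86.0, 103 and 86.2 CPM in ARE-/-. The 3 ovary groups did not overlap, and in uterus both ARE groups lay above WT. In ARE-/-, Irf9 rose 1.99-fold in ovary (log2 0.99 ± 0.11, adjusted p = 0.000762). The uterus differences, 0.90 ± 0.22 for ARE-/- (adjusted p = 0.0552) and 0.91 ± 0.22 for ARE+/- (adjusted p = 0.0865), were of like size to each other and not called. The ARE-/- one was called without WT 2 (1.03, adjusted p = 0.0485) or without ARE-/- 1 (1.05, adjusted p = 0.0186), and the ARE+/- one without ARE-/- 1 (0.90, adjusted p = 0.0326). In ARE+/- ovary the difference was 0.45 ± 0.11 (adjusted p = 0.0688), called with no filter on low counts (0.46, adjusted p = 0.0462). Irf9 overlaps the same-strand gene Rnf31 over 123 of its 3102 exonic bases. Rnf31 had 1179 to 2263 counts a library in uterus, where WT Irf9 had 1543 to 2490. The ARE-/- differences of Rnf31 were 0.61 in uterus (adjusted p = 0.126) and 0.42 in ovary (adjusted p = 0.0332). With all counts of Rnf31 taken off, also chosen after seeing the data, the ARE-/- difference of Irf9 was 2.18 in ovary (adjusted p = 0.0129) and 1.60 in uterus (adjusted p = 0.111). Counts of Rnf31 from outside the shared stretch were taken off too, which cuts the lower WT counts by a larger part. These values are therefore not estimates of the Irf9 difference.

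Set in order per kilobase, Irf3 led WT uterus with 29.3 ± 1.5 CPM per kilobase (SD, n = 3) and WT ovary with 29.8 ± 1.1. Irf9, Irf1 and Irf2 followed in both, each overlapping the next of the 3 but not Irf3, and Irf4 was last, below all others, at 0.96 ± 0.32 in uterus and 0.204 ± 0.046 in ovary. In ARE-/- tissue Irf1 led, with 53.0 ± 3.6 CPM per kilobase in uterus and 48.7 ± 3.8 in ovary, and its libraries did not overlap the next gene, Irf7 in uterus (34.0 ± 9.6) and Irf3 in ovary (32.3 ± 1.8). Below it, the genes from Irf7 down to Irf2 each overlapped the next in uterus, and in ovary Irf3 overlapped Irf9, while Irf8, Irf7, Irf5 and Irf2 each overlapped the next. In ARE+/- uterus Irf1 (39.19 ± 10.05) overlapped Irf7, and in ARE+/- ovary Irf1 (29.97 ± 3.82) overlapped Irf3 (29.7 ± 0.6). The summed level of the 8 genes was 102.8 ± 8.1 CPM per kilobase in WT uterus and 209.5 ± 19.0 in ARE-/- uterus, and 88.4 ± 6.7 and 185.8 ± 20.8 in ovary. Irf3 made up 28.5% ± 1.2 of that sum in WT uterus and 15.5% ± 4.0 in ARE-/- uterus, and 33.8% ± 1.2 and 17.6% ± 2.7 in ovary. The Irf1 levels in the order, the sums and the ratio to Irf2 include reads of the stretch shared with Gm17334. That gene had 461 to 2073 counts a library in uterus and 447 to 1888 in ovary. The order, sums and ratio were not computed without those reads.

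**Figure D3:**
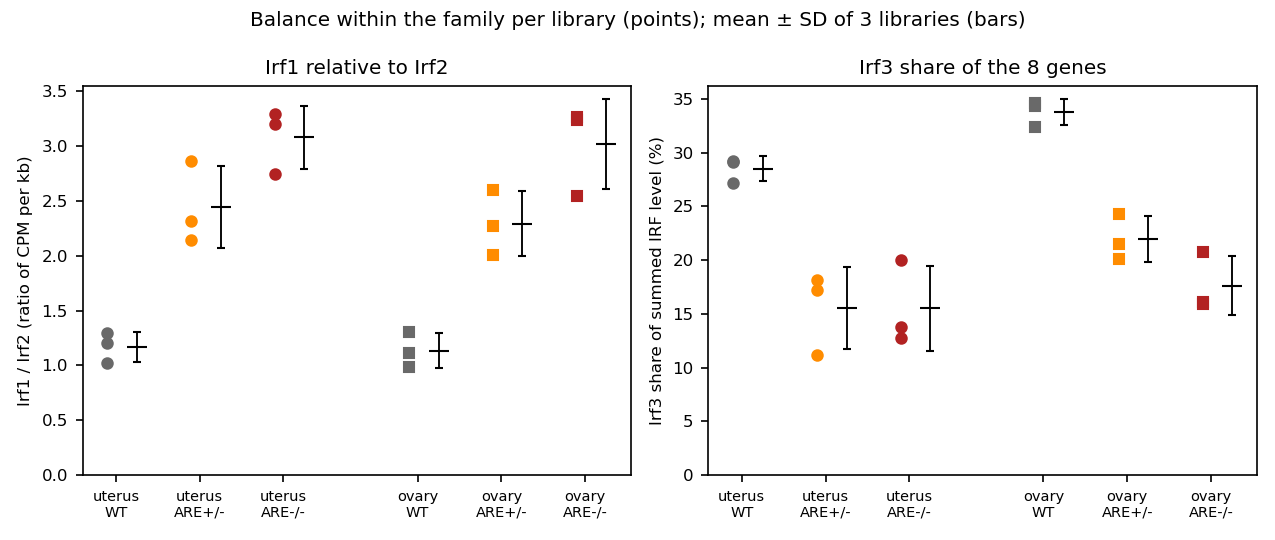
Ratio of Irf1 to Irf2 (left) and the share of Irf3 in the summed level of the 8 genes (right, %), both from CPM per kilobase, in each library (points) with mean ± SD of 3 libraries. The ratio is at most 1.30 in WT libraries and at least 2.00 in ARE libraries of both tissues.

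Directly between ARE-/- and ARE+/-, none of the 8 genes was called by edgeR in either tissue, and DESeq2 called Irf1 (0.72, adjusted p = 0.000547) and Irf9 (0.54, adjusted p = 0.00854) in ovary. In uterus 0% of all genes were called by edgeR (0 genes, with 1182 at an unadjusted p under 0.05, and 0 to 186 under other tools and settings). None of the 8 had an unadjusted p under 0.05, where 4.87% of all genes did, and none had groups that did not overlap, where 4.77% did. Their differences ran from -0.18 for Irf7 to 0.82 for Irf4. With the replicate number as a block these 2 were -0.05 and 0.81, and none was called. In ovary 0.0491% of all genes were called, and 3 of the 8 had an unadjusted p under 0.05, where 8.39% of all genes did: Irf1 (0.71), Irf8 (0.72, adjusted p = 0.397) and Irf9 (0.54, adjusted p = 0.201). Those 3 and Irf3 lay higher in every ARE-/- ovary than in any ARE+/- ovary, which held for 6.32% of all genes.

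Between the tissues of WT mice, 2 of the 8 genes differed, both lower in ovary, where 11.9% of all genes were called lower. The log2 difference, ovary minus uterus, was -1.02 ± 0.20 for Irf8 (adjusted p = 0.00142) and -2.23 ± 0.66 for Irf4 (adjusted p = 0.0213). The Irf4 call ended without uterus WT 3, ovary WT 1 or ovary WT 3 (-2.16 to -1.92, adjusted p = 0.0765 to 0.0783). The other 6 genes had differences of -0.32 to 0.03, none called. Whether the ARE effect differed between tissues was tested as an interaction. None of the 8 was called for ARE-/-, where 0.169% of all genes were called, or for ARE+/-, where 0.00375% were. The smallest p was that of Irf8 in ARE-/-, whose effect was 0.86 ± 0.28 higher in ovary than in uterus (adjusted p = 0.203). For Irf4 the same term was 1.44 ± 0.89, and for the other 6 genes it ran from -0.39 to 0.16.

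The genes around the family were read from lists. Of 16 IRF1 target genes, 12 rose in ARE-/- uterus and 13 in ARE-/- ovary, with 10 and 12 in ARE+/-, and none fell. Igtp, an immunity-related GTPase, rose by 4.06 ± 0.37 in ARE-/- uterus and 4.33 ± 0.23 in ovary on the log2 scale (adjusted p = 0.000668 and 1.26e-05). The immune checkpoint gene Cd274 rose by 3.46 ± 0.26 in uterus (adjusted p = 0.000592), and Ciita, the master regulator of MHC class II, rose by 3.53 ± 0.18 in ovary (adjusted p = 3.73e-06). The list's median was 2.55 in ARE-/- uterus and 3.00 in ovary. The ARE-/- counts stayed at 10 to 14 in uterus and 13 to 15 in ovary across the alternatives, but the ARE+/- uterus count was 0 without WT 1 or WT 3.

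Of 20 ISGF3 target genes, 2 rose in ARE-/- uterus, 2 in ARE+/- uterus, 15 in ARE-/- ovary and 5 in ARE+/- ovary, with medians of 1.30, 1.54, 1.499 and 1.00, and none fell. In ovary Oas3, an antiviral synthetase, rose by 3.12 ± 0.33 (adjusted p = 0.000656), and Ifit3 rose by 2.50 ± 0.37 (adjusted p = 0.00565). The ovary ARE-/- count stayed at 10 to 17. With DESeq2 the count was 13 in ARE-/- uterus, 16 in ARE+/- uterus and 13 in ARE+/- ovary, and with no filter on low counts the uterus counts were 4 and 10, so the low uterus counts depend on the tool and the filter. The uterus counts also moved with single libraries: for ARE-/- to 0 without WT 1 or WT 3, 1 without ARE-/- 3, 6 without WT 2 and 9 without ARE+/- 3, and for ARE+/- to 0 without WT 1 or WT 3, 6 without WT 2 or ARE-/- 1 and 4 without ARE-/- 3. In ARE+/- ovary the count ran from 0 without WT 1 to 10 without ARE-/- 6, with 1 without WT 3, ARE+/- 1 or ARE+/- 4, 2 without ARE-/- 2, 3 without ARE+/- 2 and 8 without ARE-/- 3. The summed level of the list was 1412 CPM in uterus ARE+/- 3, the library with the highest Irf7, against 610 and 668 CPM in the other 2 of its group and 329 to 379 CPM in WT uterus. The library that was highest for Irf7 was thus also highest for this list, and the part of either in the other was not tested. Of 11 type I interferon genes only Ifne had enough counts to test, and it was called in neither tissue (1.19 ± 1.12 and 0.77 ± 0.72 for ARE-/- in uterus and ovary). Ifnb1 had no counts in 5 of the 6 groups.

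**Figure D4:**
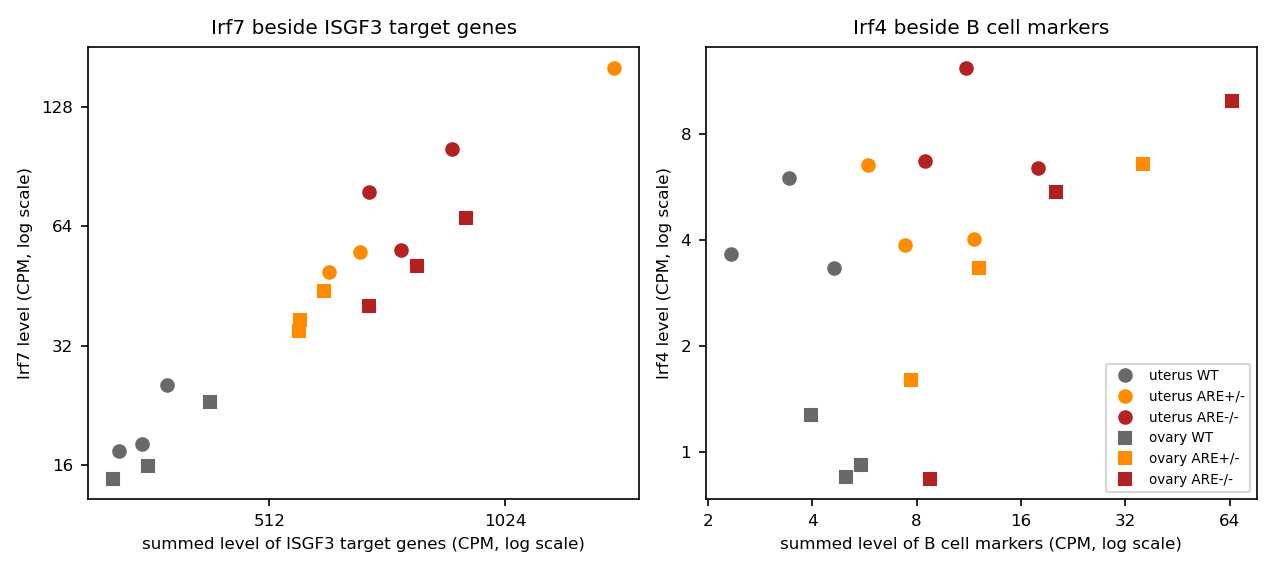
Irf7 against the summed level of 20 ISGF3 target genes (left) and Irf4 against the summed level of 7 B cell markers (right), 1 point per library, all axes CPM on a log2 scale, circles for uterus and squares for ovary. Uterus ARE+/- 3 is the top right point for Irf7, at 1412 and 161 CPM, and ovary ARE-/- 6 is the lowest Irf4 point, at 8.73 and 0.843 CPM.

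Of 14 genes of interferon receptors and JAK-STAT signalling, 4 rose in ARE-/- uterus and 7 in ARE-/- ovary, with 2 and 1 in ARE+/-, and none fell. Ifngr1, a chain of the interferon-γ receptor, rose by 0.94 ± 0.15 in uterus (adjusted p = 0.0101), but it was not called when WT 1 or WT 3 was left out or when only the 2 groups were fitted. The ARE-/- uterus count was 1 without WT 1 and 2 without WT 3, and the ovary count was 4 without WT 1. The ARE+/- uterus count was 0 without WT 1 or WT 3, 4 without ARE-/- 1 and 1 without WT 2, ARE-/- 2 or any 1 ARE+/- library, and the ARE+/- ovary count was 2 without WT 2 or WT 3 and 3 without ARE-/- 6. Of 17 matched sensors and kinases that activate IRF3, IRF5 and IRF7, 2 rose in ARE-/- uterus and 8 in ARE-/- ovary. In ARE+/- 0 and 2 rose, and none fell. Rigi and Sting1 of this list were not matched by symbol. Among those that rose in ARE-/- ovary was Myd88, the Toll-like receptor adaptor (0.59 ± 0.10, adjusted p = 0.00815). The ARE-/- ovary count fell to 2 without WT 3, 3 without WT 1, 4 without ARE-/- 2 and 5 without WT 2 or ARE-/- 3. The ARE-/- uterus count was 0 without WT 1 or WT 3, 1 without ARE+/- 2, ARE-/- 2 or ARE-/- 3, and 6 without ARE-/- 1. Across the alternatives the ARE+/- counts ran from 0 to 6 in uterus and from 0 to 5 in ovary. Of 12 partner factors of IRF4 and IRF8, 4 rose in each ARE-/- tissue, with 2 in ARE+/- uterus and 1 in ARE+/- ovary. Spi1, which encodes PU.1, rose by 1.68 ± 0.22 in uterus (adjusted p = 0.00431), and Batf2 rose by 3.49 ± 0.25 in ovary (adjusted p = 4.8e-05). The partner counts were 1 in uterus without WT 1 or WT 3 and 2 in ovary without WT 1 or WT 3, and the ARE+/- counts ran from 0 to 4 in uterus and from 1 to 5 in ovary without 1 library. With DESeq2 the JAK-STAT counts in ARE+/- were 4 in uterus and 5 in ovary, the sensor count in ARE-/- uterus was 5, and the partner count was 7 in ARE-/- ovary and 6 in ARE+/- ovary. None of 3 IRF2 binding proteins was called in any of these comparisons.

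T cell and macrophage marker sums were higher in the ARE genotypes, while plasma cell marker sums overlapped between genotypes in both tissues. All 10 T cell markers rose in ARE-/- uterus and ovary, and their summed level was 16.7 to 23.9 CPM in WT uterus, 39.7 to 51.5 in ARE+/- and 112.4 to 135.8 in ARE-/-. In ovary it was 9.90 to 12.1, 25.0 to 40.2 and 49.3 to 111.7 CPM. Of 13 macrophage markers, 9 rose in ARE-/- uterus and 8 in ARE-/- ovary. Their sum was 624 to 846 CPM in WT uterus and 1681 to 3220 in ARE-/-, and 496 to 645 and 1028 to 2182 CPM in ovary. The uterus macrophage count was 2 without WT 1 or WT 3, and the ovary count 5 without WT 1. Of 5 markers of conventional type 1 dendritic cells, cells that need IRF8, 2 rose in ARE-/- uterus (0 without WT 1 or WT 3) and 3 in ARE-/- ovary (5 without ARE-/- 6). Xcr1, their chemokine receptor, measured 2.64 ± 0.60 CPM in WT uterus and 11.8 ± 5.0 in ARE-/- (SD, n = 3), and 0.79 ± 0.53 and 13.1 ± 5.3 in ovary. Naaa, the most abundant of the 5, measured 73.8 ± 13.6 and 74.1 ± 5.5 CPM in uterus and 50.6 ± 6.5 and 86.0 ± 22.6 in ovary. The sum of the 5 was 103 to 124 CPM in WT uterus and 128 to 182 in ARE-/-, and 77.9 to 91.2 and 121 to 211 in ovary. Of 5 plasmacytoid dendritic cell markers and 5 plasma cell markers (4 tested in ovary), none was called in either ARE-/- tissue. Plasmacytoid markers gave 2 calls in uterus with DESeq2 and 1 without ARE-/- 1, and 1 in ovary without ARE-/- 6, and plasma cell markers gave 2 in ovary with DESeq2 and 1 without ARE-/- 6. A single one of 7 B cell markers was called in ARE-/- ovary (0 without any 1 WT library, 4 with DESeq2), and 0 in ARE-/- uterus (3 with DESeq2). These 7 summed to 2.33 to 4.63 CPM in WT uterus and 8.47 to 17.9 in ARE-/-, and to 3.97 to 5.52 and 8.73 to 64.9 CPM in ovary. All 6 adipocyte markers rose in ARE-/- uterus, but none did without WT 1 or WT 3. No marker in these lists was at 0 in all libraries of the ARE-/- groups. The part of these cell types in the levels of the 8 genes was not tested.

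Genes were also ranked by how closely their 4 log2 differences from WT (both ARE genotypes in both tissues) matched those of each member, by root mean square distance over 17441 genes. The nearest to Irf1 were Fcgr3 (0.0551), an Fc receptor gene, and Cd86 (0.0661), a costimulatory ligand. Each of the 18 libraries was then left out in turn. Fcgr3 stayed among the nearest 10 all 18 times and Cd86 16 times. The nearest to Irf5 was Abi3 (0.0483), followed by Cbr2 (0.0488), and the nearest to Irf7 were Mpeg1 (0.0913), which encodes the macrophage protein perforin-2, and Neurl3 (0.149). Irf8 had Tbc1d10c (0.127) and Rgs14 (0.133), and Irf4 had Krt13 (0.121) and the immunoglobulin segment Ighv3-6 (0.216). Irf9 had Lamb3 (0.0865) and Mir7115 (0.0929), Irf2 had C2cd4d (0.0334) and Dgka (0.0405), and Irf3 had Slirp (0.0141) and Tspan18 (0.0166), genes of small difference like it. Several of these places rested on single libraries: Lamb3 was among the nearest 10 in 2 of the 18 runs, Cbr2 in 5, Tspan18 in 7 and C2cd4d in 9, while the other 10 genes named after Cd86 were so in 12 to 17. The distance of Krt13 ran from 0.0675 to 1.19 and that of Lamb3 from 0.0258 to 0.567. Among the members themselves the closest pair was Irf5 and Irf9 (0.199), and the farthest was Irf3 and Irf7 (1.62).

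The authors' deposited table of likelihood ratio tests over the 3 genotypes gave adjusted p-values for Irf1 of 8.79e-10 in uterus and 9.48e-33 in ovary. In ovary 5 of the 8 genes were under 1e-04 by the authors' deposited table, namely Irf1, Irf5, Irf7, Irf8 and Irf9, all in cluster 1 with 569 of the 719 genes under that value. Only Irf1 was under it in uterus in the authors' deposited table, also in cluster 1, with 463 of 514 genes. That value is stricter than the 0.05 used for calls here. In the authors' deposited table, uterus Irf5, Irf7, Irf8 and Irf9 had 0.000149, 0.000525, 0.000699 and 0.0168, all under 0.05. Irf4 had 0.194 in uterus and 0.0243 in ovary in the authors' deposited table. Irf2 and Irf3 had values of 0.423 and 0.862 in uterus and 0.0535 and 0.566 in ovary in the authors' deposited table.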

How the data were processed

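Total RNA from uterus and ovary was sequenced as Illumina paired ends, per the labels' protocols. The deposited values are whole-number counts per gene, made by the authors with featureCounts 2.0.4 on GENCODE M32 with multi-mapping and multi-overlapping reads counted for every feature, mates counted singly and strand not used, per the file headers. Per the submitters' processing notes, STAR, DESeq2 and mm10 were used. M32 belongs to a later build than mm10, so gene coordinates are those the file headers give. The adjusted p-value of a likelihood ratio test per gene is the authors' deposited value. Between 68.1% and 76.4% of counts from 1 to 20 were even.

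Symbols were matched to 52029 of 57010 identifiers (91.3%). Genes passing filterByExpr (24277 in uterus, 24457 in ovary, 26682 over both) went into edgeR 4.0.16 (R 4.3.3) with TMM scaling, a robust quasi-likelihood F-test, Benjamini-Hochberg adjustment over all genes tested, threshold 0.05. The 9 libraries of a tissue were fitted together, and all 18 for tissue comparisons and interactions. CPM are TMM-scaled. The standard error is the log2 fold change divided by the root of F. DESeq2 1.42.0 was an alternative. The closing section gives the effect of the alternatives. The fits were tested on simulated counts. Named were all members, 2 nearest genes each for likeness with at least 1 CPM and a prior count of 2, at most 4 called genes a list with the highest and lowest fold changes, and Ifng. The 8 genes and all 16 lists were chosen with earlier results of these data known. All 8 members passed the filter. The rule that chose the family spoke of 9 genes, and the ninth was not analysed here.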

Additional observations from a re-analysis of the deposited data

How the results depend on the processing

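Of 72 results (8 genes, 9 comparisons), 16 were called. Their 245 alternatives kept the call in 207, lost it in 38 and turned the sign in 0. Uncalled results gained a call in 26 of 967 alternatives. The cause of these moves was not tested. The number of the 8 genes called in ARE-/- uterus (4) was 2 with only the 2 groups compared and 1 to 4 without 1 library. In ARE+/- uterus (1) it was 5 with DESeq2, 4 with only the 2 groups and 0 to 4 without 1 library (0 without WT 1 or WT 3, 4 without ARE-/- 1). In ARE-/- ovary (6) it was 5 to 7 without 1 library. In ARE+/- ovary (3) it was 5 with DESeq2 or with no filter, 0 with the replicate block and 1 to 4 without 1 library (1 without WT 1, WT 3, ARE+/- 1 or ARE+/- 4). Between the ARE genotypes in ovary (0) it was 2 with DESeq2 and 1 with no filter. Between WT tissues (2) it was 1 to 2 without 1 library. Over all genes, the calls ran from 192 to 2407 (911 reported) in ARE-/- uterus, from 0 to 1363 (276 reported) in ARE+/- uterus, from 0 to 186 (0 reported) in uterus between ARE genotypes, from 785 to 4139 (2558 reported) in ARE-/- ovary, from 59 to 1500 (417 reported) in ARE+/- ovary, from 0 to 199 (12 reported) in ovary between ARE genotypes, from 4838 to 8552 (6717 reported) in WT ovary against uterus, from 3 to 824 (45 reported) in the ARE-/- interaction and from 0 to 197 (1 reported) in the ARE+/- interaction.

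Signs turned only in uncalled results. With the replicate block the turned values were Irf2bp1 -0.0025 in ARE-/- ovary, Irf3 0.016 in ARE+/- ovary, Irf3 0.12 and Irf9 -0.048 in the ARE-/- interaction and Irf1 0.058 in the ARE+/- interaction. Without 1 library, ARE-/- uterus had Irf3 -0.042 to 0.26 and Ifne -0.16 to 1.63. Without 1 library, ARE+/- uterus had Irf4 -0.13 to 0.47. Without 1 library, uterus between ARE genotypes had Irf7 -0.47 to 0.57 and Irf9 -0.15 to 0.16. Without 1 library, ARE-/- ovary had Irf2bp1 -0.019 to 0.22. Without 1 library, ARE+/- ovary had Irf3 -0.047 to 0.0049. Without 1 library, ovary between ARE genotypes had Irf4 -0.27 to 1.12. Without 1 library, WT ovary against uterus had Irf3 -0.016 to 0.058 and Irf9 -0.19 to 0.032. Without 1 library, the ARE-/- interaction had Irf2 -0.0087 to 0.26, Irf3 -0.12 to 0.17, Irf5 -0.090 to 0.22 and Irf9 -0.064 to 0.22. Without 1 library, the ARE+/- interaction had Irf1 -0.24 to 0.12, Irf2 -0.20 to 0.063 and Irf5 -0.0083 to 0.23. Same-number libraries had deviations correlated at -0.035 to 0.343 in uterus, -0.16 to 0.014 in ovary and 0.023 to 0.132 across tissues, so the numbers were not taken to pair mice, except that all 3 pairs of the 2 uterus ARE genotypes exceeded 0.1. Not every library correlated best with its own number. Across tissues all same-number pairs were above 0, but the tissue comparisons and interactions treated the 18 libraries as independent. With the number as a block, Irf8 (-1.03, adjusted p = 0.00147) and Irf4 (-2.195, adjusted p = 0.00169) kept their calls between WT tissues. The block brought the IRF1 targets called in ARE+/- ovary from 12 to 6, gave Irf4 a call in ARE-/- ovary (2.95, adjusted p = 0.0191) and ended those of Irf1 (1.22, adjusted p = 0.0737), Irf7 (1.01, 0.281) and Irf8 (1.25, 0.0559) in ARE+/- ovary.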
